A study of Mus musculus with 2 samples.

Results

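The cytochrome P450 genes were taken as all genes whose symbol is Cyp followed by a family number, a subfamily letter and a gene number, which leaves out Cyp51 and the cyclophilins. P450 genes with another kind of symbol, such as Tbxas1, are left out as well. This rule found 56 genes in 21 subfamilies among the 19294 genes of the deposited count table. It uses gene names only and no measured value. Of the 56 genes, 5 are named as pseudogenes by the suffix ps in their symbol.

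The study treated mouse intestinal organoids (mIOs) with dextran sulfate sodium (DSS), a sulfated sugar polymer used to injure gut epithelium, and asked how inflamed organoids differ from intact ones. Poly(A) RNA was sequenced from 1 control library and 1 DSS library, both of day 4. The mIOs of both groups were grown from jejunal crypts of Lgr5-EGFP-IRES-creERT2 mice, in Matrigel domes with EGF, Noggin and R-spondin. In this knock-in allele the Lgr5 promoter drives EGFP and a tamoxifen-dependent Cre, and both libraries carry it. The DSS group was kept in DSS for 4 days, and its concentration in the sequenced culture, the age of the mice and the number of mice or domes pooled are not given in the sources used here. The culture is epithelium without the blood vessels, stroma and immune cells of the gut. With 1 library per group there is no replicate check and no test, so every interval given here is an exact 95% interval that covers counting error only.

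Cytochrome P450 enzymes are heme proteins that insert an oxygen atom into their substrates. Most sit in the endoplasmic reticulum and take electrons from P450 oxidoreductase, whereas a few sit in mitochondria and take them from ferredoxin. Members of families 1, 2 and 3 oxidize drugs, plant compounds, steroids and arachidonic acid, family 4 enzymes mainly hydroxylate the far end of fatty acids and leukotrienes, and others act on cholesterol, bile acids and vitamin D. In the small intestine, CYP3A enzymes of mature enterocytes are the best known site of drug oxidation before the blood reaches the liver. Nuclear receptors that sense foreign compounds, lipids and bile acids, and the aryl hydrocarbon receptor (AHR), set the transcription of many of these genes.

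Among P450 promoters 6 hold the letters CAAAGTCCA, a core bound by the hepatocyte nuclear factor HNF4, and these sites are shown first. Of the 4 motifs searched, this is the one with the largest ratio between its share of P450 promoters and its share of all promoters, and the genes behind it ranged from lower to higher in the DSS library. Each is given with 10 bases on either side, 5′ to 3′ on the strand of the gene, with the searched letters in capitals, from RefSeq promoters of mouse build GRCm38.p6.
Cyp2c70, chr19:40187332-40187360, minus strand: aggtcaaactCAAAGTCCAaactctgtgt
Cyp2c40, chr19:39812841-39812869, minus strand: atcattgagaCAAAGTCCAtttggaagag
Cyp2c67, chr19:39649149-39649177, minus strand: atcattgagaCAAAGTCCAtttggaagca
Cyp2c68, chr19:39741160-39741188, minus strand: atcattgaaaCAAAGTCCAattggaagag
Cyp2c65, chr19:39060880-39060908, plus strand: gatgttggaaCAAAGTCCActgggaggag
Cyp3a11, chr5:145879945-145879973, minus strand: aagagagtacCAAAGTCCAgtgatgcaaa

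The letters CAAAGTCCA were searched on both strands of the 250 bases before each gene's start. They were found in 6 of the 44 P450 genes with a promoter in the table (13.6%) and in 122 of 27025 genes in all (0.451%). In all 6 genes the letters lie on the same strand as the gene, between 45 bases (Cyp2c40) and 125 bases (Cyp2c67) before the start. The Cyp2c genes among them are neighbouring copies of one another, so their sites are not independent observations. The flanks of Cyp2c40 and Cyp2c67 read alike up to the last bases, and Cyp2c68 is close to both. The count ratios of these 6 genes, given with their subfamilies, covered the range from −2.28 in Cyp2c70 to 3.14 in Cyp3a11 on the log2 scale. A match is a description of the letters in this window, not a site of binding.

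The 250 bases before the start of Cyp3a13 and Cyp1a1 are shown because Cyp3a13 had the highest P450 level of the DSS library and Cyp1a1 is the textbook target of AHR. Capitals mark the letters GCGTG, the core that AHR binds with its partner, and the letters TATAAA of the TATA box.
Cyp3a13, GRCm38.p6, chr5:137921620-137921869, minus strand: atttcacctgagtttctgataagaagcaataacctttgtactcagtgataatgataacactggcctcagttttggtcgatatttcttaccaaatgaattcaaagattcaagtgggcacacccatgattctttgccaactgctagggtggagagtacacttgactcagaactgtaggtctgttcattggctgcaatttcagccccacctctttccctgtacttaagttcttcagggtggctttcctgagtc
Cyp1a1, GRCm38.p6, chr9:57697363-57697612, plus strand: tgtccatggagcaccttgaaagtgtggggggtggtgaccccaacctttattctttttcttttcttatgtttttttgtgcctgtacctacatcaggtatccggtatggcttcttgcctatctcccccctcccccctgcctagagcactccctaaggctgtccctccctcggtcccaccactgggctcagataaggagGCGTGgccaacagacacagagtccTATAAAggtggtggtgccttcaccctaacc

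Cyp1a1 holds GCGTG starting 54 bases and TATAAA starting 30 bases before its start. The Cyp3a13 window holds none of the 4 motifs searched. GCGTG was found in 11 of 44 P450 promoters (25%) and in 30.9% of all promoters, and TATAAA in 17 of 44 (38.6%) and in 14.3% of all. The letters GTTAAT, one arm of the palindrome bound by HNF1, were found in 6 of 44 (13.6%) and in 7.49% of all. All 4 motifs were searched on both strands, and none of them contains another.

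P450 transcripts took a larger share of the DSS library than of the control library. The 56 genes together held 225721 of 65493032 counts in the control library, or 0.345% (exact Clopper-Pearson interval 0.343 to 0.346%). In the DSS library they held 770139 of 59746968 counts, or 1.29% (interval 1.29 to 1.29%). After scaling with TMM, which sets the bulk of all genes equal between the libraries, the summed level, in counts scaled to a common library size (CPM), was 3154 CPM in the control library and 14086 CPM in the DSS library. The sum was therefore 4.47-fold higher in the DSS library, a log2 ratio of 2.16 (interval 2.15 to 2.17). Cyp3a13 held the most counts of any P450 gene in the DSS library, and without it the sum was 3.71-fold higher (log2 ratio 1.89).

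Most of the single genes stood on the same side as the sum. Genes were counted where one library or both held 10 counts or more, which 54 P450 genes and 17235 genes in all did. The log2 ratio of 43 of these 54 lay above 0 (79.6%), beside 48% of all genes, and 41 of the 54 when the libraries are scaled by their total counts, beside 38.5%. A log2 ratio of 2 or more was found in 22 of the 54 (40.7%), beside 7.87% of all genes. A log2 ratio of −2 or less was found in 3 of the 54 (5.56%), beside 6.54% of all genes. The median log2 ratio was 1.67 over the P450 genes and −0.06 over all genes. The counting interval lay above 0 in 41 of the 54 genes, below 0 in 8 and held 0 in 5. Over the 17235 genes in all it lay above 0 in 6676, below 0 in 7354 and held 0 in 3205. Of the 54 genes, Cyp2a12, Cyp2j5 and Cyp2d37-ps passed the minimum through the DSS library alone and Cyp4f39 through the control library alone. When both libraries had to reach 10 counts, 19 of 50 P450 genes were at 2 or more, beside 5.85% of 15666 genes. Cyp1a2 and Cyp2c39 stayed between 5 and 8 counts in both libraries and enter none of these counts.

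**Figure D1:**
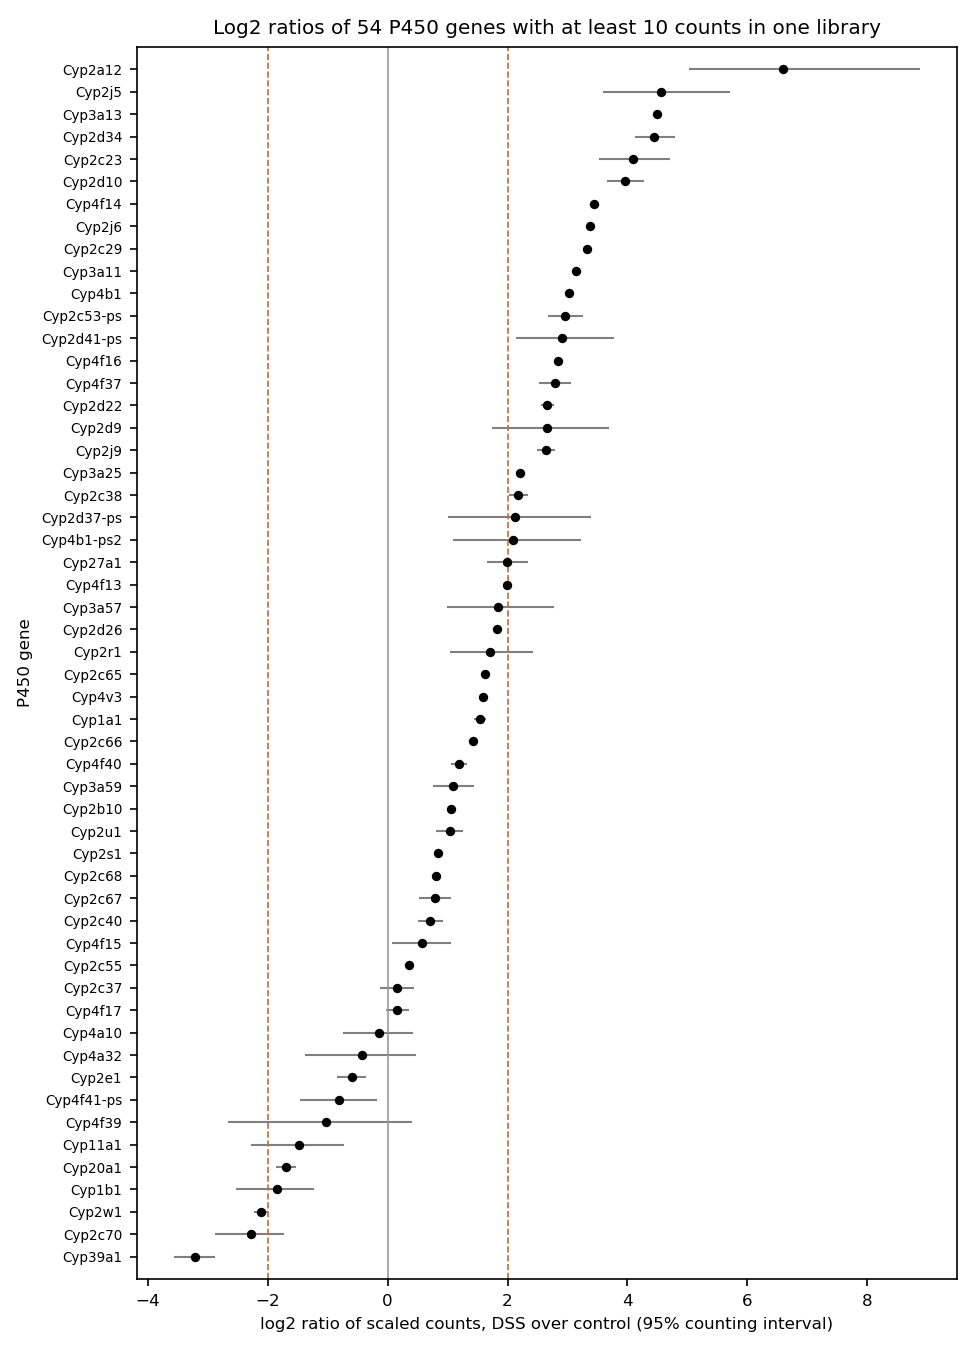
Log2 ratio of scaled counts (x axis, DSS over control) for each of the 54 P450 genes that reached 10 counts (y axis), as points with 95% counting intervals as bars; dashed lines mark −2 and 2. The points run from −3.22 for Cyp39a1 to 6.59 for Cyp2a12, and 22 lie at or past the line of 2.

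The libraries also differed in the markers of the cells that carry P450 enzymes. All 15 enterocyte markers had a log2 ratio above 0 (median 3.32, 12 at 2 or more), and their summed level was 3402 CPM in the control library and 27452 CPM in the DSS library. The largest ratios among them were those of Ada (5.30) and of the apolipoproteins Apoa1 (5.27) and Apoa4 (4.54). All 11 stem cell markers were below 0 (median −3.25, 8 at −2 or less), with a sum of 2075 CPM in the control library and 324 CPM in the DSS library. Among these, Olfm4 stood at −9.59, Ascl2 at −4.31, Axin2 at −4.26 and Lgr5 at −3.78. Both libraries are labelled as intestinal stem cells, yet both held enterocyte, goblet and Paneth cell markers, so the RNA was that of a mixed epithelium. The part of these shifts in the P450 ratios was not tested, and in bulk RNA fewer cells of a type and less RNA per cell cannot be told apart.

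The make-up of the P450 transcripts differed between the libraries. To compare genes, CPM was divided by the length of the GENCODE transcript matched to each gene (CPM per kb). The Cyp2c subfamily took 57.2% of the summed CPM per kb in the control library and 36.7% in the DSS library. Cyp3a took 8.38% and 25.8%, Cyp4f 8.48% and 16.4%, and Cyp2j 2.48% and 6.11%, in the same order. Shares of Cyp2d were alike at 7.97% and 7.47%. Cyp2s took 5.16% and 2.26%, and Cyp2w 2.67% and 0.15%.

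**Figure D2:**
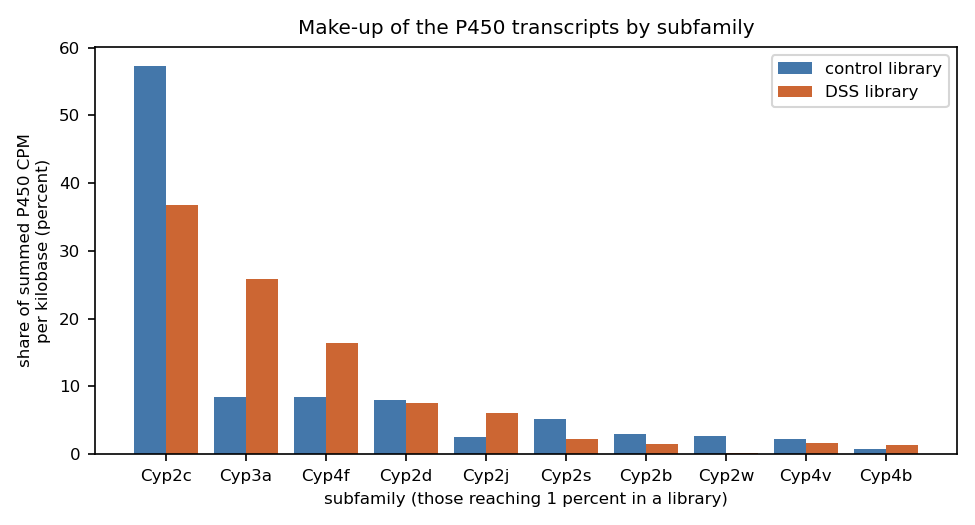
Share of the summed P450 CPM per kb (y axis, percent) held by each subfamily that reached 1 percent in a library (x axis), with blue bars for control and orange bars for DSS. Cyp2c is the tallest bar in both libraries, at 57.2% and 36.7%, and Cyp3a is next in the DSS library at 25.8%.

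The order of the single genes differed as well. In the control library Cyp2c55 stood first at 409 CPM per kb and held 26.8% of the P450 sum, followed by Cyp2c65 (186 CPM per kb), Cyp2c66 (154 CPM per kb) and Cyp2d26 (116 CPM per kb). In the DSS library Cyp3a13 stood first at 963 CPM per kb and held 15.5% of the sum, followed by Cyp4f14 (690 CPM per kb), Cyp2c29 (656 CPM per kb) and Cyp2c65 (574 CPM per kb). Cyp3a13 had stood at place 11 in the control library (42.6 CPM per kb). Cyp2c55 stood at place 6 in the DSS library, although its own level per kb was higher there (523 CPM per kb).

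**Figure D3:**
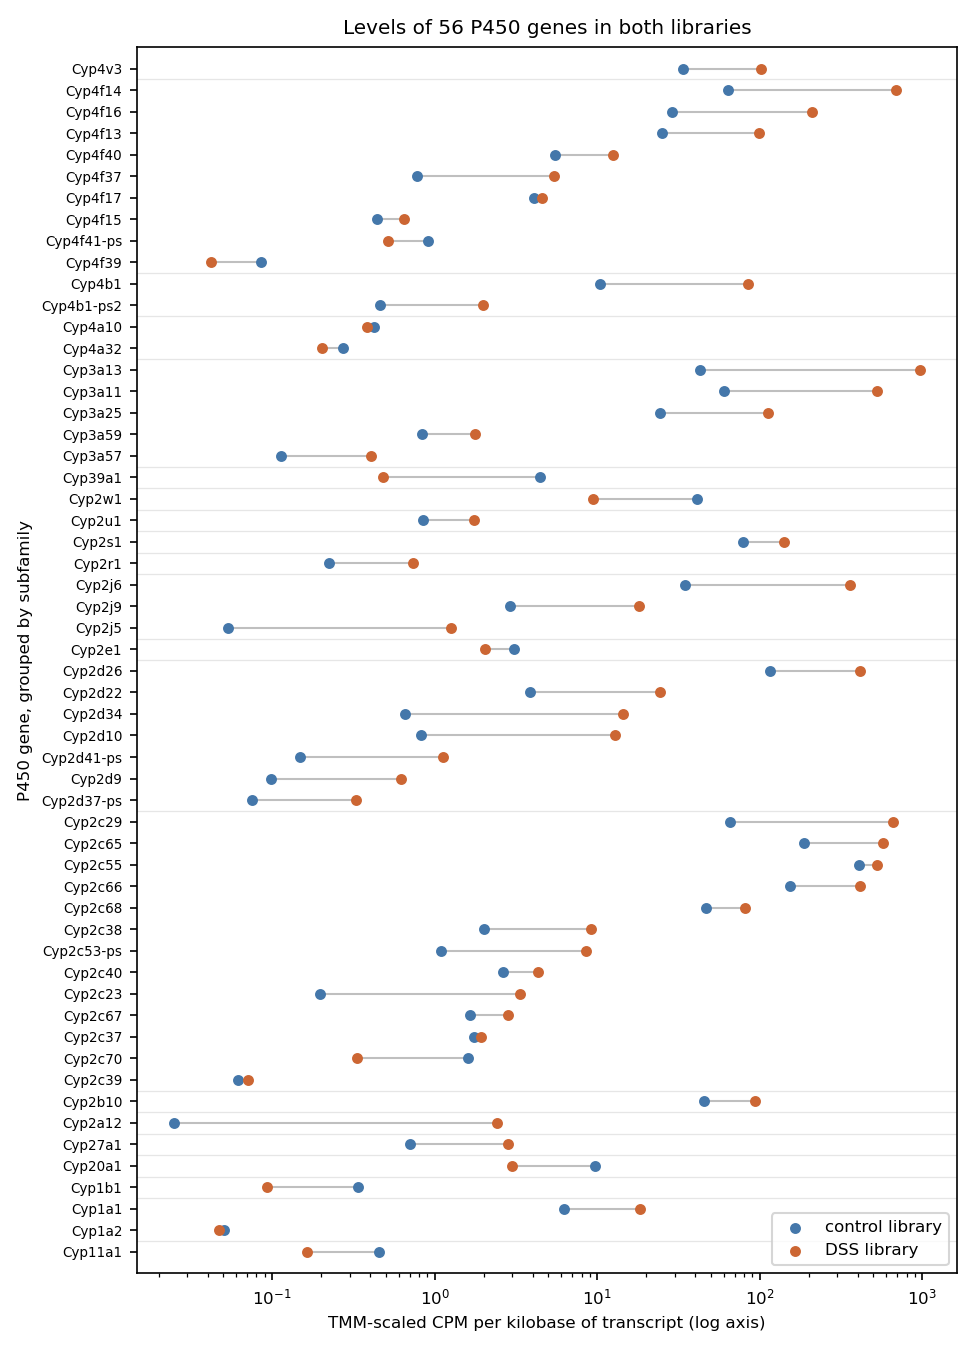
Level of each of the 56 P450 genes (y axis, grouped by subfamily) in CPM per kb of transcript (x axis, log scale), with a blue point for control, an orange point for DSS and a line joining them. Cyp3a13 reaches the highest level, 963 CPM per kb in the DSS library, from 42.6 CPM per kb in the control library.

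Cyp3a genes, which encode the main drug and steroid oxidizing P450 enzymes of gut and liver, were higher in the DSS library in all 5 members. Their summed counts were 22673 in the control library and 235609 in the DSS library, which is 13.6-fold after scaling (log2 ratio 3.77, interval 3.75 to 3.79). Cyp3a13 (NCBI gene 13113), the form best known from the intestine, had 9016 counts in the control library and 155574 in the DSS library (log2 ratio 4.50, interval 4.47 to 4.53). Cyp3a11, the counterpart of human CYP3A4 and a standard target of the pregnane X receptor (PXR), had 10058 and 67500 counts (log2 ratio 3.14, interval 3.10 to 3.17). In the control library Cyp3a11 stood above Cyp3a13 per kb (60.0 against 42.6 CPM per kb), and in the DSS library below it (527 against 963 CPM per kb). Cyp3a25 had 3465 and 12298 counts (log2 ratio 2.22, interval 2.16 to 2.27). Cyp3a59 had 118 and 193 counts (log2 ratio 1.10) and Cyp3a57 had 16 and 44 (log2 ratio 1.85). Of the 100-base windows of the Cyp3a59 transcript, 5.6% also occur in other genes, most often in Cyp3a25, so reads may be split between these genes, whereas the subfamily sum does not depend on such a split.

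Cyp2c genes, whose enzymes oxidize arachidonic acid and many drugs, spanned the range from lower to higher in the DSS library. Their sum was 117699 counts in the control library and 229517 in the DSS library (log2 ratio 1.35, interval 1.34 to 1.36). Of the 13 members 12 passed the minimum, of which 11 stood above 0 (among them Cyp2c37, which does not with total counts), 4 at 2 or more and 1 at −2 or less. The most abundant member of the control library, Cyp2c55, which was described from the colon, had 58438 and 57016 counts (log2 ratio 0.35, interval 0.34 to 0.37). With total counts the log2 ratio of Cyp2c55 was 0.10. Cyp2c65 had 25682 and 60524 counts (log2 ratio 1.63, interval 1.60 to 1.65), and Cyp2c66 had 17964 and 36938 (log2 ratio 1.43, interval 1.40 to 1.45). Both are intestinal arachidonic acid oxidizing forms, and 7.8% of the windows of Cyp2c65 also occur elsewhere, most often in Cyp2c66.

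Larger ratios were found in other Cyp2c members. Cyp2c29, an epoxygenase abundant in liver, had 8345 and 63996 counts (log2 ratio 3.33, interval 3.29 to 3.36). Cyp2c38 had 413 and 1433 counts (log2 ratio 2.18, interval 2.02 to 2.34). Cyp2c23, an epoxygenase best known from the kidney, had 27 and 351 counts (log2 ratio 4.09, interval 3.52 to 4.71), and the pseudogene Cyp2c53-ps had 113 and 673 (log2 ratio 2.96, interval 2.67 to 3.26). These 4 members differed widely in level, from 0.20 CPM per kb for Cyp2c23 to 65.4 CPM per kb for Cyp2c29 in the control library. Cyp2c70, which makes muricholic acids, the bile acids typical of the mouse, was the 1 member with a ratio below −2. It had 197 counts in the control library and 31 in the DSS library (log2 ratio −2.28, interval −2.88 to −1.73).

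The remaining Cyp2c members had ratios closer to 0. Cyp2c68 had 5742 and 7661 counts (log2 ratio 0.80), Cyp2c67 had 203 and 268 (0.79) and Cyp2c40 had 341 and 426 (0.71). These are close copies, and 44.1% of the windows of Cyp2c40 and 23.7% of those of Cyp2c67 also occur in other genes, most often in Cyp2c69, which is not analysed here. Their single values are uncertain for that reason. Cyp2c37 had 226 and 193 counts (log2 ratio 0.16, interval −0.12 to 0.44), which becomes −0.10 with total counts.

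Most of the listed Cyp2c genes lie side by side, and their ratios were not those of a block. In RefSeq order the 12 listed genes of the cluster run from Cyp2c55 to Cyp2c70, among 18 P450 genes and pseudogenes annotated there. The ratios of 2 or more in this cluster belonged to Cyp2c53-ps, Cyp2c29 and Cyp2c38, in the middle of the row. Cyp2c23, with a log2 ratio of 4.09, lies outside it. Cyp2c37 and Cyp2c70, the last pair of listed genes, had ratios of 0.16 and −2.28. The Cyp2d cluster was more even, with ratios from 1.82 to 4.45 in its 7 listed genes. In the Cyp3a cluster, which does not include Cyp3a13, the ratios of its 4 listed genes ran from 1.10 to 3.14.

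**Figure D4:**
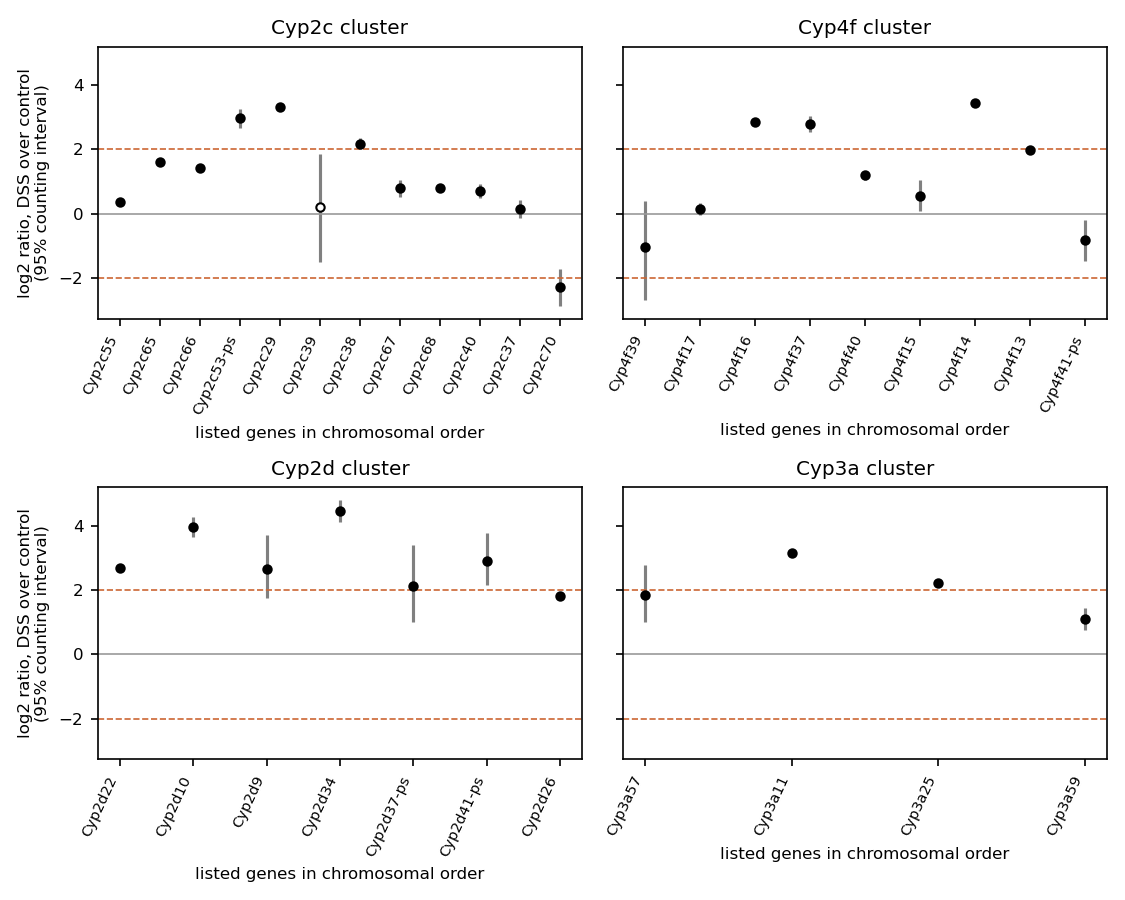
Log2 ratio, DSS over control (y axis), of the listed genes of the Cyp2c, Cyp4f, Cyp2d and Cyp3a clusters in RefSeq chromosomal order (x axis), as points with 95% counting intervals as bars. The open point, Cyp2c39, has under 10 counts in both libraries; in the Cyp2c panel the values run from 3.33 for Cyp2c29 to −2.28 for Cyp2c70.

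Cyp2d genes, whose human counterpart CYP2D6 oxidizes many amine drugs, were higher in the DSS library in all 7 members. Their sum was 15073 counts in the control library and 44465 in the DSS library (log2 ratio 1.95, interval 1.92 to 1.98). Cyp2d26 held most of these counts, with 14100 and 38137 (log2 ratio 1.82, interval 1.80 to 1.85). The other members started lower and had larger ratios. Cyp2d22, the gene closest to CYP2D6, had 761 and 3693 counts (log2 ratio 2.67, interval 2.55 to 2.78). Cyp2d34 had 78 and 1304 counts (log2 ratio 4.45, interval 4.12 to 4.80). Cyp2d10 had 97 and 1151 counts (log2 ratio 3.96, interval 3.66 to 4.27), with 14.8% of its windows also in other genes, most often Cyp2d11, which is not analysed here. Cyp2d9, a steroid hydroxylase of male liver, had 12 and 58 counts (log2 ratio 2.66, interval 1.75 to 3.69), and 9.9% of its windows also occur elsewhere, most often in Cyp2d10.

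The 3 Cyp2j genes belong to a subfamily whose enzymes oxidize fatty acids such as arachidonic acid. All 3 stood at 2 or more on the log2 scale, and their sum was 9413 counts in the control library and 73166 in the DSS library, which is 10.2-fold after scaling (log2 ratio 3.35, interval 3.32 to 3.38). Cyp2j6, the form most abundant in gut, accounted for nearly all of it, with 8983 and 70997 counts (log2 ratio 3.37, interval 3.34 to 3.40). Cyp2j9, known from brain, had 421 and 2007 counts (log2 ratio 2.64, interval 2.49 to 2.80). Cyp2j5, known from kidney and liver, had 9 counts in the control library and 162 in the DSS library (log2 ratio 4.56, interval 3.60 to 5.71). Per kb, Cyp2j6 stood at 34.8 CPM in the control library and 360 CPM in the DSS library, far above Cyp2j9 and Cyp2j5 in both.

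Family 4, the fatty acid hydroxylases, was higher in the DSS library as a sum, but its subfamilies differed. The 12 genes outside the pseudogenes had 30024 counts in the control library and 151312 in the DSS library (log2 ratio 2.72, interval 2.70 to 2.74), and 9 of them stood above 0, among them Cyp4f17, which does not with total counts. Cyp4f14, which inactivates leukotriene B4 and shortens vitamin E side chains, had 10105 and 83739 counts (log2 ratio 3.44, interval 3.41 to 3.47). Cyp4f16 had 4649 and 25482 counts (log2 ratio 2.84, interval 2.80 to 2.89), and Cyp4f37 had 148 and 781 (log2 ratio 2.79, interval 2.53 to 3.05). Of the windows of Cyp4f16 9.8%, and of those of Cyp4f37 8.1%, also occur in other genes, most often in the other of the pair. Cyp4f13 had 3137 and 9487 counts (log2 ratio 1.99, interval 1.93 to 2.04), just under the line of 2, and Cyp4f40 had 727 and 1268 (log2 ratio 1.19).

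Other Cyp4f genes were near or below 0. Cyp4f15 had 68 and 77 counts (log2 ratio 0.57, interval 0.08 to 1.06). Cyp4f17 had 496 and 423 counts (log2 ratio 0.16, interval −0.03 to 0.35), which becomes −0.10 with total counts. Cyp4f39, which makes the very long hydroxy acids of skin lipids, had 16 and 6 counts (log2 ratio −1.03, interval −2.67 to 0.40). The pseudogene Cyp4f41-ps had 71 and 31 counts (log2 ratio −0.81, interval −1.47 to −0.18). Cyp4f17 stands next to Cyp4f16 in RefSeq order, and Cyp4f39 next to Cyp4f17, so neighbours in this cluster also lay on both sides of the line of 2.

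Outside Cyp4f, Cyp4b1, which acts on fatty acids and on plant toxins, had 1404 counts in the control library and 8785 in the DSS library (log2 ratio 3.03, interval 2.95 to 3.12). Cyp4v3, the counterpart of human CYP4V2, which is mutated in a crystalline retinal dystrophy, had 9180 and 21203 counts (log2 ratio 1.60). Cyp4a10, the classical target of PPAR-alpha in liver, had 64 and 44 counts (log2 ratio −0.15, interval −0.74 to 0.42), and Cyp4a32 had 30 and 17 (log2 ratio −0.43, interval −1.38 to 0.47). The intervals of both Cyp4a genes held 0. Reads of this pair cannot be fully told apart, since 20.1% of the windows of Cyp4a32 occur in other genes, most often in Cyp4a10, and their sum, 94 and 61 counts, had a log2 ratio of −0.24 (interval −0.72 to 0.24).

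Family 1 genes are the standard targets of AHR. Cyp1a1, which oxidizes aromatic hydrocarbons, had 1207 counts in the control library and 2687 in the DSS library (log2 ratio 1.54, interval 1.44 to 1.64). Cyp1b1, which acts on aromatic hydrocarbons and estradiol, had 123 and 26 counts (log2 ratio −1.85, interval −2.52 to −1.23). The intervals of these 2 genes lay on opposite sides of 0. Cyp1a2, the liver form next to Cyp1a1 on the chromosome, stayed under 10 counts in both libraries.

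The other family 2 genes with known drug or steroid substrates stood on both sides of 0. Cyp2b10, the standard target of the receptor CAR, had 6171 and 9811 counts (log2 ratio 1.06, interval 1.01 to 1.10). Cyp2e1, which oxidizes ethanol, had 405 and 204 counts (log2 ratio −0.60, interval −0.85 to −0.35). Cyp2a12, a bile acid and steroid hydroxylase of liver, had 3 counts in the control library and 221 in the DSS library. Its log2 ratio of 6.59 was the highest of the P450 genes and the least precise, with an interval of 5.03 to 8.88. Cyp2a12 lies in a cluster with Cyp2b10 and Cyp2s1, whose log2 ratios were 1.06 and 0.83.

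Among the genes whose enzymes are less studied, Cyp2s1 was abundant in both libraries, with 15459 counts in the control library and 21036 in the DSS library (log2 ratio 0.83, interval 0.80 to 0.86). Per kb it stood at 78.7 and 140 CPM. Cyp2w1, known from fetal gut and colon tumors, had 4412 and 778 counts (log2 ratio −2.12, interval −2.23 to −2.005). In the order of P450 levels per kb it stood at place 12 in the control library (40.8 CPM) and at place 24 in the DSS library (9.41 CPM). Cyp2u1, a fatty acid hydroxylase, had 266 and 416 counts (log2 ratio 1.03), and the orphan enzyme gene Cyp20a1 had 1541 and 365 (log2 ratio −1.69, interval −1.86 to −1.52).

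The 4 genes for sterol, bile acid, steroid and vitamin D enzymes differed among themselves. Cyp39a1, which hydroxylates an oxysterol on the way to bile acids, had 973 counts in the control library and 80 in the DSS library (log2 ratio −3.22, interval −3.56 to −2.89), or 9.29-fold lower in the DSS library, the lowest ratio of all P450 genes. Cyp27a1, the mitochondrial sterol hydroxylase that starts the other bile acid route, had 95 and 290 counts (log2 ratio 1.999, just under the line of 2, interval 1.66 to 2.35). Cyp2r1, the main vitamin D hydroxylase of the first activation step, had 26 and 65 counts (log2 ratio 1.71, interval 1.03 to 2.43). Cyp11a1, the mitochondrial enzyme that cuts the cholesterol side chain to begin steroid synthesis, had 69 and 19 counts (log2 ratio −1.47, interval −2.29 to −0.72). The sum of the 4 genes was 1163 and 454 counts (log2 ratio −0.97), in which Cyp39a1 outweighs the others in the control library.

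The 5 pseudogenes had 220 counts in the control library and 862 in the DSS library (log2 ratio 2.36, interval 2.14 to 2.58). Besides those already given, Cyp2d41-ps had 16 and 92 counts (log2 ratio 2.91), Cyp2d37-ps had 9 and 30 (log2 ratio 2.13) and Cyp4b1-ps2 had 11 and 36 (log2 ratio 2.10). Of the windows of Cyp4b1-ps2 15.8% also occur in other genes, most often in Cyp4b1. In 4 of the 5 the ratio was above 0, and 4 were at 2 or more.

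The partners of the P450 enzymes were compared with them. Por, which encodes the oxidoreductase that feeds electrons to all P450 enzymes of the endoplasmic reticulum, had 16078 counts in the control library and 24209 in the DSS library (log2 ratio 0.98, interval 0.95 to 1.01), less than the ratio of 2.16 of the summed P450 genes. Of 12 genes in the electron donor list 7 were above 0 and 5 below, and their median was 0.60 on the log2 scale. This list also holds Pgrmc1 (0.89) and Pgrmc2 (1.12), which encode P450-binding heme proteins and not electron donors. The largest ratios were those of the cytochrome b5 reductase genes Cyb5r3 (11084 and 46215 counts, 2.45), Cyb5r2 (199 and 30 counts, −2.34) and Cyb5r1 (3902 and 882 counts, −1.76). The mitochondrial pair Fdx1, ferredoxin, and Fdxr, its reductase, had log2 ratios of −0.22 (interval −0.33 to −0.12) and −0.38 (interval −0.55 to −0.21). Genes of heme synthesis and breakdown were split, with 6 of 12 above 0 (3 with total counts, 7 with upper quartile factors) and a median of −0.0024. Alas1, the rate-limiting enzyme gene of heme synthesis in most tissues, had 5545 and 9647 counts (log2 ratio 1.19).

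Among the receptors that control P450 genes, 15 of 23 were above 0 (13 with total counts, 17 with upper quartile factors) and the median log2 ratio was 0.36. Hnf4g, a lipid binding nuclear receptor of the gut, had the largest ratio, with 5005 and 18020 counts (log2 ratio 2.24, interval 2.19 to 2.28). Nr1i3, which encodes CAR, had 3044 and 8143 counts (log2 ratio 1.81, interval 1.75 to 1.87). Smaller ratios were found for Nr1i2, which encodes PXR (0.59), Ahr (0.44), Ppara (0.43) and Hnf4a (0.05, or −0.21 with total counts). Ahrr, the AHR repressor gene and itself an AHR target, had 62 and 15 counts (log2 ratio −1.66, interval −2.58 to −0.83).

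Other known targets of these receptors gave a background for the P450 members of each group. All 12 targets of PXR and CAR other than P450 genes were above 0 (10 of 12 with total counts), with a median log2 ratio of 1.55 and 4 at 2 or more. They were led by Aldh1a1 (3.95), a retinal dehydrogenase, Gsta1 (3.64), a glutathione transferase, and Ces2c (2.68), a carboxylesterase. Of 5 AHR targets 4 were above 0, with a median of 0.78, and Ugt1a6a (1.67) and Ugt1a6b (1.54) had ratios close to that of Cyp1a1. These overlap in 1 locus and may share reads. The other AHR targets, Nqo1 (0.78), Tiparp (0.42) and Ahrr (−1.66), lay farther from Cyp1a1. Of 15 targets of PPAR-alpha 11 were above 0, with a median of 0.97, led by the lipid genes Cd36 (4.57) and Creb3l3 (4.06), whereas Cyp4a10 stood at −0.15.

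Enzymes that act before or after P450 enzymes on their lipids were split. Of 13 genes of the eicosanoid pathway 5 were above 0 (6 with upper quartile factors) and 8 below, and the median was −0.15. Among those below was Tbxas1, thromboxane synthase, itself a P450 outside the symbol rule (326 and 46 counts, log2 ratio −2.44). Pla2g4a, the phospholipase that frees arachidonic acid, had 599 and 69 counts (log2 ratio −2.73), while Hpgd, which inactivates prostaglandins, had 1586 and 7675 (2.66). Ephx2, the soluble hydrolase that opens the epoxides made by Cyp2c and Cyp2j enzymes, had 5465 and 24953 counts (log2 ratio 2.58, interval 2.54 to 2.62). Retinoid genes were above 0 in 13 of 14 (median 1.66), led by Bco1 (4.39), which cleaves beta-carotene, Aldh1a1 (3.95), which also stands in the PXR and CAR list, and Rdh16 (3.69, 6 and 59 counts). Steroid genes were above 0 in 11 of 14 (9 with total counts, median 0.61), with Hsd3b2 (4.16), Hsd17b6 (3.45) and Hsd3b3 (2.95) the farthest from 0. All 5 vitamin D response genes were above 0 (median 0.64), with S100g at 1.76, Slc30a10 at 1.21 and Atp2b1 at 0.64.

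**Figure D5:**
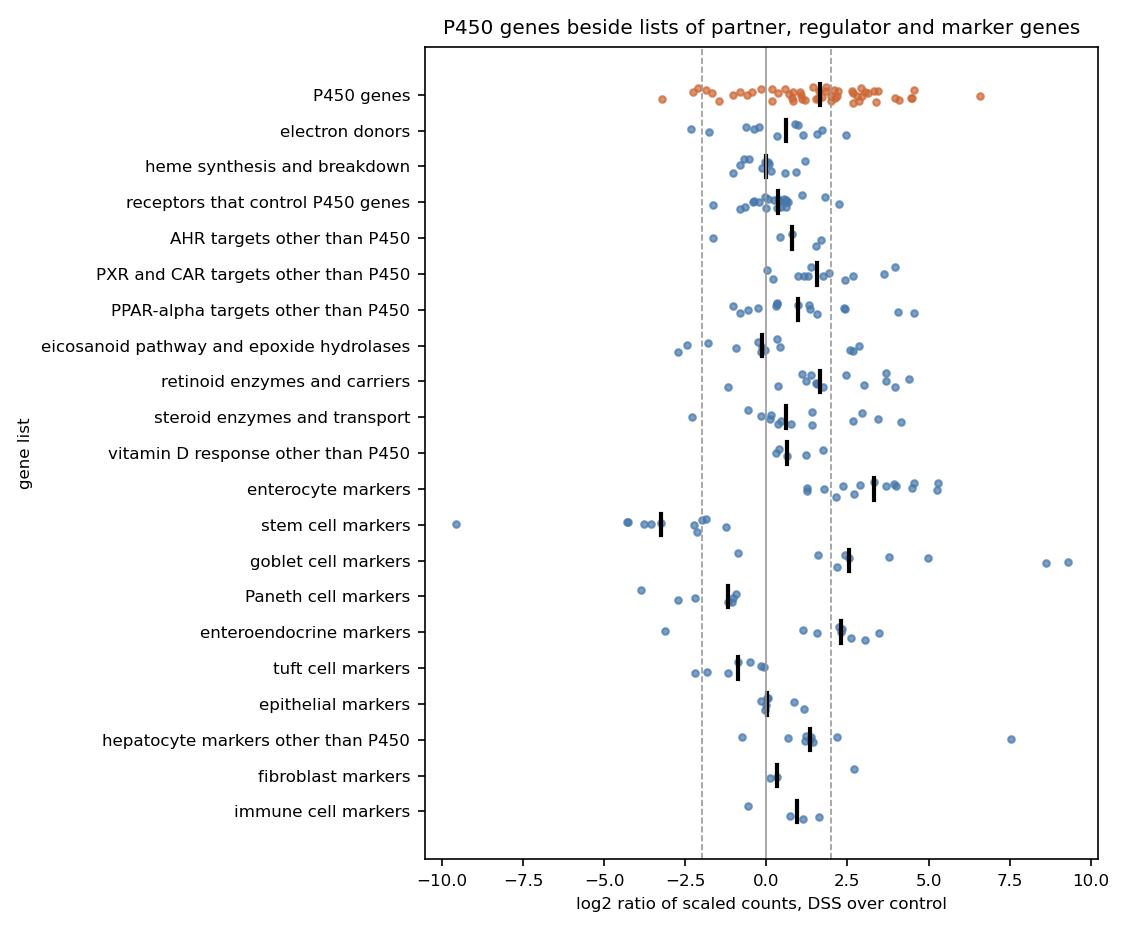
Log2 ratio, DSS over control (x axis), of the single genes of each list (y axis) as points, with the list's median as a black bar and dashed lines at −2 and 2. The P450 median is 1.67, beside 0.60 for the electron donor list (with Pgrmc1 and Pgrmc2), 3.32 for enterocyte markers and −3.25 for stem cell markers.

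Several of these P450 genes are best known from liver, so hepatocyte markers were counted in the same libraries. Of 18 such markers other than P450 genes 9 were listed, of which 8 were above 0 (median 1.34), with a summed level of 81.8 CPM in the control library and 111 CPM in the DSS library. Alb, the albumin gene, had 62 and 110 counts, Apoh had 39 and 80, and Hpd had 146 and 283. These sums rest mostly on a pair of genes that went opposite ways. Ttr, the transthyretin gene, had 5532 and 2514 counts (log2 ratio −0.75), or 77.3 and 46.0 CPM. Mup20, a urinary protein gene of a family of near-identical copies, had 21 and 2990 counts (log2 ratio 7.54), or 0.29 and 54.7 CPM. Ahsg, Fgb, Fgg, Tat, Hp and Hpx are not listed and were not analysed here. Fibroblast markers summed to 1.44 and 2.10 CPM and immune cell markers to 14.2 and 24.7 CPM, with Ptprc and Cd3e not listed. Paneth cell markers were below 0 in 7 of 7 (median −1.19) and goblet cell markers above 0 in 8 of 9 (median 2.55), and enteroendocrine markers were above 0 in 8 of 9 (median 2.30). Tuft cell markers were below 0 in 7 of 7 (6 with upper quartile factors, median −0.88), and general epithelial markers had a median of 0.03 (−0.23 with total counts). By RT-PCR of DSS-treated mIOs, the study reported Vil1, Muc2 and Chga at similar levels and Lgr5 and Lyz lower. In these libraries the log2 ratios were 1.25 for Vil1, 4.98 for Muc2, 2.60 for Chga, −3.78 for Lgr5 and −1.06 for Lyz1. The reason for the difference in Vil1, Muc2 and Chga was not tested.

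The 56 listed genes are those with at least 1 count in both libraries. RefSeq holds 132 mouse gene symbols of this form, of which 97 are protein coding. The 76 that are not listed here, 46 of them protein coding, include Cyp24a1, Cyp26a1, Cyp27b1, Cyp7a1, Cyp8b1 and Cyp4a14 and were not analysed here. A P450 gene with counts in only one of the libraries would be among those, so the counts of genes on either side of 0 hold for the listed genes only.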

How the data were processed

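Deposited values are raw counts of reads for each gene, which the authors list by NCBI gene number and symbol, from 1 control and 1 DSS library prepared with a stranded poly(A) kit. The single-sample files are named as FPKM, but all 38588 of their values equal the deposited counts, so no FPKM values were used. HISAT2 and StringTie are named in the submitters' processing notes, and their versions, their roles, the counting settings and the genome build are not given in the sources used here. The smallest count is 1, so genes with no counts in a library are not in the table.

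The libraries held 65493032 (control) and 59746968 (DSS) counts. Counts were scaled with TMM factors (1.09 and 0.915) in edgeR 4.0.16 under R 4.3.3. Log2 ratios carry exact Clopper-Pearson 95% intervals from the counts of both libraries, which cover counting error only. No model was fitted, and no p-value is given. Genes that reached 10 counts in one library or both were counted past log2 ratios of 2 and −2, the lines of the study's volcano plot. Levels per kb used the longest GENCODE transcript matched to each gene (54 P450 genes by RefSeq accession, 2 by symbol). Shared 100-base windows were counted among GENCODE transcripts. RefSeq GRCm38.p6 gave promoter sequences and the order of neighbouring genes, with clusters broken at gaps over 1000000 bases. The script was tested on simulated counts.

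Every P450 gene with at least 10 counts in a library could be named, and of each other list the 3 largest absolute ratios among genes with at least 50 counts, with Por, Fdx1 and Fdxr. Of the genes this rule names, 1 is not reported here. Nr1i2, Ahr, Ppara, Hnf4a, Nqo1, Tiparp, Lgr5, Alb and Ttr were named outside this rule, after their values were seen. So were Tbxas1, Pgrmc1, Pgrmc2, Trpv6, Vil1, Chga and Lyz1. The P450 genes and all lists were chosen with earlier results of these data known. As alternatives, the scaling was taken from total counts, from upper quartiles and from DESeq2 1.42.0, a prior count of 2 was added, the deeper library was thinned, and the count minimum was varied. Python 3.11.15, numpy 2.4.6, scipy 1.17.1, pandas 2.3.3 and matplotlib 3.10.9 were used.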

Additional observations from a re-analysis of the deposited data

How the results depend on the processing

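The number of P450 genes with a log2 ratio of 2 or more lay between 18 and 24 in every planned setting, beside 22 as reported. The 18 came with total counts, beside 6.31% of all genes, and the 24 with upper quartile factors, beside 8.54%. The number at −2 or less was 3, or 4 with total counts, where 8.83% of all genes were. Scaling by total counts moves every log2 ratio by −0.26 and the median of all genes to −0.31. With it the P450 median was 1.41 and the log2 ratio of the summed counts 1.90, and Cyp2c37 and Cyp4f17 were the 2 genes whose ratio changed sign, both to −0.10. With upper quartile factors these values were 1.76 and 2.25. The median was 1.64 with a prior count of 2, 1.63 with at least 50 counts in one library, and 1.61 when both libraries had to reach 10 counts as well as with no filter. Further alternatives were chosen after seeing the data. Without the 16 genes that share 5 percent or more of their windows with another gene, the median was 1.77 and the log2 ratio of the sum 2.32. In this setting 15 of 38 genes were at 2 or more, beside 7.83% of all genes. Without pseudogenes the median was 1.60. Without Cyp3a13 the median was 1.63 and the log2 ratio of the sum 1.89. DESeq2 size factors, thinning and a prior count of 2 moved no P450 gene or subfamily beyond its counting interval, whereas total counts moved 29 of 54 genes and upper quartile factors 17. With 1 library per group the spread between cultures is unknown, and depth limits genes such as Cyp2a12, with 3 counts in the control library. No paired analysis was possible because each group has 1 library.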
